A study of Mus musculus with 9 samples.

Results

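The 60 mouse genes for semaphorins, plexins, neuropilins, ephrins, Eph receptors, Slits and Robos were followed through 9 microarrays. They were chosen by gene symbol alone (Sema classes 3 to 7, Plxn, Nrp, Efn, Eph, Slit and Robo) in the deposited annotation, and 61 of 39601 transcript clusters with a gene symbol matched (a transcript cluster is the array's unit for one locus). Ephb1 matched with 2 clusters, and the brighter one was kept. The groups held 3 samples each. The first was purchased mouse embryonic stem cells, of unstated line and strain (mESC). The second, called embryo below, was incisor epithelium at E14.5, and the third, called adult, was the labial cervical loop at postnatal day 30, the epithelial stem cell niche of the ever-growing mouse incisor. Both dental tissues came from mice with a Sox2-GFP reporter, in which cells that express the stem cell factor Sox2 glow green. Living GFP+ cells were sorted, and each dental sample pooled several embryos or mice. The labels call the samples biological replicates, but do not say whether the mESC samples were separate cultures, so p-values may measure technical spread there.

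These families were named for steering growing axons and also act in epithelia, vessels and glands. Class 3 semaphorins are secreted and bind neuropilins, which pair with plexin-A proteins to carry the signal. Sema3e is the exception that binds plexin-D1 directly. Most other semaphorins are tethered to the membrane and bind plexins without a neuropilin. Ephrin-A proteins are held to the membrane by a lipid anchor and ephrin-B proteins span it. Both bind Eph receptor tyrosine kinases on the neighbouring cell, signal in both directions and help to keep tissue compartments apart. Slits are secreted ligands of Robo receptors and usually repel.

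Signals are given on the log2 scale, on which 1 unit is a 2-fold difference, and they compare 1 gene between samples, not genes with each other. The median of 5222 negative-control probe sets was 4.81, but their 95th percentile was 9.27, so a signal between these levels lies within the range of the controls. A member was taken as above background in a group where each of its 3 arrays exceeded that array's own negative-control median. This held for 48 of 60 members in mESC, 49 in embryo and 49 in adult. Against the 95th percentile it held for 3, 14 and 13. Epha5, Epha6, Epha8, Epha10, Plxnb3, Robo3, Robo4, Sema4f and Slit1 were not above the median on any of the 9 arrays. All 9 arrays exceeded it for 46 members.

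**Figure D1:**
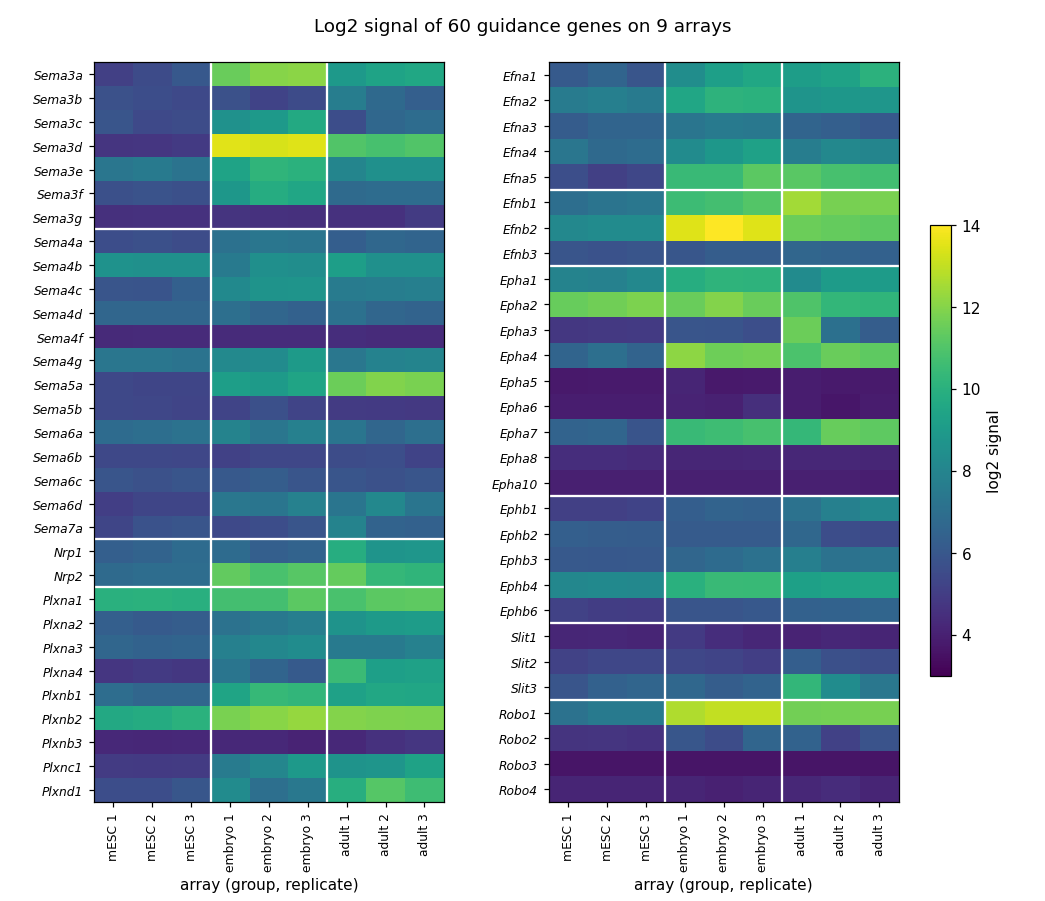
Log2 signal (colour) of the 60 genes (rows, by family) on each of 9 arrays (columns, by group and replicate). Sema3d, Sema3a, Efnb2, Robo1 and Epha4 are brighter on the dental arrays than on the mESC arrays, while 9 genes stay at background on all arrays.

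Group labels were checked first. Sox2 was lower in both dental groups than in mESC and lower in adult than in embryo, with log2 means of 14.16 in mESC, 11.86 in embryo and 9.83 in adult. The pluripotency gene Pou5f1 lay at 10.81 to 10.91 in mESC and at background in the dental groups. Of 8 dental epithelium markers, 5 were higher than in mESC in both dental groups, among them the keratin genes Krt5 (10.13 ± 0.36 in embryo and 10.68 ± 0.36 in adult) and Krt14 (9.06 ± 0.23 and 8.71 ± 0.23). Epcam and Cdh1 were not higher than in mESC in either dental group. Between embryo and adult, Sox2 was higher in embryo, Cdh1 (-1.1 ± 0.28) and Krt15 (-3.28 ± 0.74) were lower, and the other 5 were not called. Markers of other cells were also present in the adult sort. Macrophage markers averaged 9.3 to 9.6 on the adult and 4.8 to 5.5 on the embryo arrays, and 8 of 8 were lower in embryo. Mesenchyme markers averaged 9.82 to 12.1 and 6.7 to 8.5, and 5 of 8 were lower in embryo. Osteoblast and odontoblast markers averaged 7.35 to 9.52 and 4.74 to 4.98, with 5 of 7 lower in embryo. Ameloblast markers, genes of enamel-forming cells, averaged 13.31 to 14.79 in adult and 5.77 to 6.32 in embryo, with 4 of 6 lower in embryo. Endothelial markers averaged 4.93 to 5.16 in adult and 4.34 to 4.67 in embryo, with 1 of 7 lower in embryo. The defining endothelial gene Cdh5 was at background in embryo but not in adult. Glial markers averaged 6.1 to 7.04 in adult and 6.12 to 6.69 in embryo. In such sorted pools, fewer cells of a type and less RNA per cell cannot be told apart.

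The first comparison sets the forming incisor of the embryo against the growing incisor of the adult. A set of secreted semaphorins, ephrin-B2, Robo1 and some ephrin-A and EphA genes were higher in embryo, whereas the semaphorin receptors Nrp1, Plxna2, Plxna4 and Plxnd1, Sema5a and ephrin-B1 were higher in adult. Of 60 members, 19 passed the test (limma, Benjamini-Hochberg adjusted p under 0.05 over 39601 clusters, and a log2 difference of at least 1), of which 11 had the higher signal in embryo and 8 the higher signal in adult. The same rule called 6.42% of all clusters, 3.59% upward and 2.83% downward in embryo. In the authors' deposited table, by its own adjusted p and fold, 4 of the 60 passed: Efnb2, Robo1, Sema3d and Sema5a. The median difference over members was 0, and over all clusters 0.01. The 3 arrays of one group lay wholly above the 3 of the other for 37 of the 60 (61.7%), against 27.8% of all clusters. The groups did not overlap for any of the 19, so each had to keep its direction within each of the 2 date strings found in the array names. That direction is therefore no separate check. With the date string as a block, all 19 were called. Within the second date string alone, which holds 1 adult array, 11 members were called, and within the first, with 1 residual degree of freedom, limma called 0, with 15 members and 6112 of all clusters at an unadjusted p under 0.05.

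**Figure D2:**
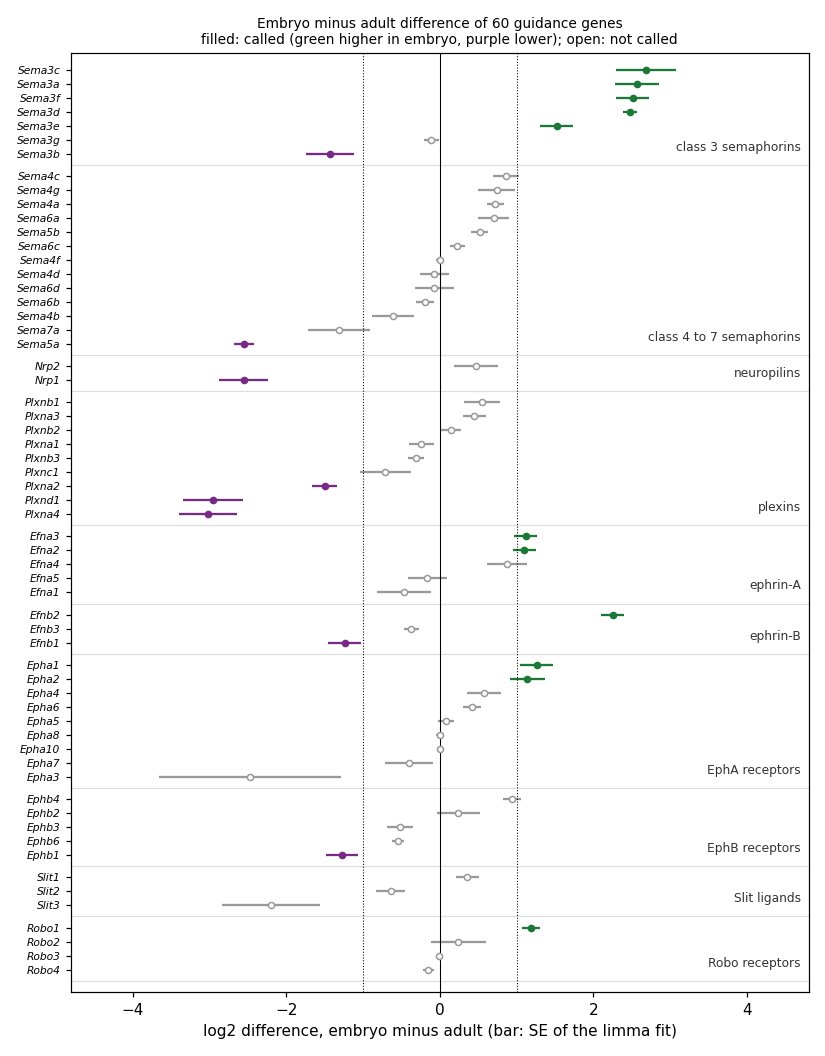
Log2 difference between embryo and adult (x axis, embryo minus adult) of the 60 genes (rows, by family) with bars for the standard error of the limma fit. Dotted lines mark a difference of 1. Of the 7 class 3 semaphorins 5 lie to the right and 1 to the left, and the called plexins and the called neuropilin all lie to the left.

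Class 3 semaphorins were the family with most calls for its size. Of the 7 genes, 5 were higher in embryo, 1 was lower and 1, Sema3g, was at background in embryo. Sema3d had log2 signals of 13.49, 13.32 and 13.46 in embryo, 11.01, 10.8 and 11.01 in adult, and 4.68, 4.75 and 4.87 in mESC. The arrays of each group lay close together, and the 3 groups were far apart. The difference between embryo and adult was 2.48 ± 0.09 (SE), a 5.59-fold higher level (adjusted p = 5.74e-06, limma). Sema3a, the best studied repellent of the class, gave 11.47, 12.01 and 12.1 in embryo against 8.9, 9.4 and 9.57 in adult (2.57 ± 0.29, adjusted p = 0.000941). Its embryo arrays all lay above its adult arrays, and those above the mESC arrays at 5.07, 5.53 and 6.03.

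Sema3f, a ligand of neuropilin-2, gave 8.82, 9.82 and 9.51 in embryo and 6.79, 6.91 and 6.91 in adult (2.51 ± 0.22, adjusted p = 0.000327). Sema3c gave 8.56, 8.97 and 9.69 against 5.6, 6.66 and 6.88 (2.69 ± 0.39, adjusted p = 0.00274). Adult replicate 1 was the low one, at the level of the mESC arrays (5.43 to 5.88), and without it the difference was 2.3. Sema3e, the plexin-D1 ligand, gave 9.4, 10.18 and 10.03 against 8.01, 8.52 and 8.52 (1.52 ± 0.22, adjusted p = 0.00318). For all of these, every embryo array exceeded every adult array.

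Sema3b ran the other way, with 5.71, 5.22 and 5.53 in embryo and 7.67, 6.75 and 6.33 in adult (-1.43 ± 0.31, adjusted p = 0.0179). Its embryo level overlapped that of mESC (5.42 to 5.71). The call was lost without embryo replicate 2 and without embryo replicate 3. It was also lost in a fit of all embryo and adult arrays with mESC left out, and in the authors' deposited table. Within the date strings the Sema3b difference was -1.99 and -0.71.

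With the date string as a block the differences of the 5 genes were 2.44 for Sema3d, 2.54 for Sema3a, 2.61 for Sema3f, 2.54 for Sema3c and 1.55 for Sema3e. Within the first date string they were 2.42, 2.86, 2.97, 2.84 and 1.92 in the same order, and within the second 2.46, 2.21, 2.25, 2.25 and 1.2. As every embryo array exceeded every adult array for these genes, none could change direction within a date string.

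Of the 5, 4 lie on one stretch of chromosome 5, in coordinates of the authors' annotation, for which no source used here names a build. All 60 member clusters overlapped the gene of the same symbol in the table of mouse assembly GRCm38.p6. Sema3d spans 12383166 to 12588943, Sema3a 13124816 to 13603485, Sema3e 14025276 to 14256689 and Sema3c 17574281 to 17730268, all on the plus strand. The gaps are 535.9, 421.8 and 3317.6 kb. On chromosome 9, Sema3b (107597674 to 107609241) lies 72.3 kb from Sema3f (107681502 to 107710475), both on the minus strand, and these neighbours differed in opposite directions. Because the chromosome 5 neighbours differed in the same direction, their upstream sequences are shown.

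The RefSeq promoter table (GRCm38.p6) gave the 250 bases before the start of Sema3d at chr5:12382916-12383165, Sema3a at chr5:13396534-13396783, Sema3e at chr5:14025026-14025275 and Sema3c at chr5:17574566-17574815, plus strand. Capitals mark matches on either strand to a SOX-type core (CATTGT or its variant CTTTGT) or a GC box (GGGCGG). The search also covered the TATA box (TATAAA).
Sema3d: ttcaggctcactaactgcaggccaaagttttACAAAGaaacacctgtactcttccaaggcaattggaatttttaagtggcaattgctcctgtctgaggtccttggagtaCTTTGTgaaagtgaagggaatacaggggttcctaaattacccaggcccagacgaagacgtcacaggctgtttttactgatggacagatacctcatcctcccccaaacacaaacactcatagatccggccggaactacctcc
Sema3a: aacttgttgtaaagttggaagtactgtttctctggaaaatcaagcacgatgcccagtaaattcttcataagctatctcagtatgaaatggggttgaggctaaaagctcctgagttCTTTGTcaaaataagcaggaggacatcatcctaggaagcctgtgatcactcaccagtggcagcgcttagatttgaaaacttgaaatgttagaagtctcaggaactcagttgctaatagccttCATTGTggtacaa
Sema3e: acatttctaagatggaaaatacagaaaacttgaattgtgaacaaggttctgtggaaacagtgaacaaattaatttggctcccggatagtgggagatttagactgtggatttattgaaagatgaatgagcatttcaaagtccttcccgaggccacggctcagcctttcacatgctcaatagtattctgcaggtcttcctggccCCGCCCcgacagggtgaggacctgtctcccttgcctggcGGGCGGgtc
Sema3c: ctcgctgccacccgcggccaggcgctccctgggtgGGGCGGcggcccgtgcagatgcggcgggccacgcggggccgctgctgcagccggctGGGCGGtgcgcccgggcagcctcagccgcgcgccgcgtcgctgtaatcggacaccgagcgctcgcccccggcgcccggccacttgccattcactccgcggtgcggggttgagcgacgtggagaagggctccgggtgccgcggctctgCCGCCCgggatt
Sema3d and Sema3a each held 2 SOX-type cores and no GC box, Sema3e 2 GC boxes and Sema3c 3. CG dinucleotides numbered 4, 2, 7 and 39 in that order, so the sequences shown differ in CG content. The Sema3a start of the table lies inside its cluster, 271968 bases from the cluster's upstream end, and the Sema3c start 535 bases from its own. The sequence shown for Sema3a may therefore not be the promoter behind its signal. Of 32851 promoters of this length, 25.2% held a SOX-type core, 32.7% a GC box and 12.4% a TATA box. Of the 53 members with a promoter in the table, 8 held a SOX-type core, 39 a GC box and 2 a TATA box. Their median was 16 CG dinucleotides, against 6 over all promoters. A match is a stretch of letters, not a site of binding.

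Receptors of class 3 semaphorins differed in the opposite direction to most of the ligands or did not pass the test. Nrp1, a co-receptor that also binds vascular growth factors, gave 6.85, 6.31 and 6.5 in embryo and 9.85, 8.68 and 8.77 in adult (-2.55 ± 0.32, a 5.84-fold lower level, adjusted p = 0.00145). The embryo arrays overlapped those of mESC (6.34 to 6.85). Nrp2 was 11.35, 10.86 and 11.13 in embryo and 11.39, 10.34 and 10.21 in adult, overlapping groups with a difference of 0.47 ± 0.29 (adjusted p = 0.386).

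Of the 9 plexins, 3 were lower in embryo and none higher. Plxna4, a partner of neuropilin-1, gave 7.26, 6.54 and 6.13 in embryo against 10.48, 9.21 and 9.29 in adult (-3.02 ± 0.38, adjusted p = 0.0016). Plxnd1, the Sema3e receptor, gave 8.31, 7.02 and 7.4 against 9.9, 11.11 and 10.58 (-2.95 ± 0.39, adjusted p = 0.00181). Plxna2 gave 7.15, 7.39 and 7.71 against 8.67, 9.01 and 9.06 (-1.5 ± 0.16, adjusted p = 0.000768). In all of these plexins the groups did not overlap. The Plxna1 arrays overlapped (10.7 to 11.22 in embryo, 10.84 to 11.29 in adult), as did those of Plxnb2 (11.8 to 12.26 and 11.84 to 11.94). Differences of the 5 uncalled plexins above background ranged from -0.71 for Plxnc1 to 0.55 for Plxnb1.

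Macrophage, mesenchyme, ameloblast, and osteoblast and odontoblast markers were higher in the same adult samples as Nrp1, Plxna4, Plxna2 and Plxnd1. The part of these markers in the differences was not tested. Mesenchyme markers averaged 12.1, 10.18 and 9.82 on adult replicates 1 to 3, and macrophage markers 9.6, 9.3 and 9.47. Nrp1 and Plxna4 were highest on adult replicate 1, whereas Plxna2 and Plxnd1 were lowest there. Among the embryo arrays, mesenchyme markers averaged 8.5 on replicate 1, against 7 and 6.7 on the others. Nrp1, Plxna4 and Plxnd1 were also highest on embryo replicate 1, and Plxna2 was lowest. Without adult replicate 1 the differences were -2.17 for Nrp1, -2.61 for Plxna4, -1.62 for Plxna2 and -3.27 for Plxnd1, and all stayed called.

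**Figure D3:**
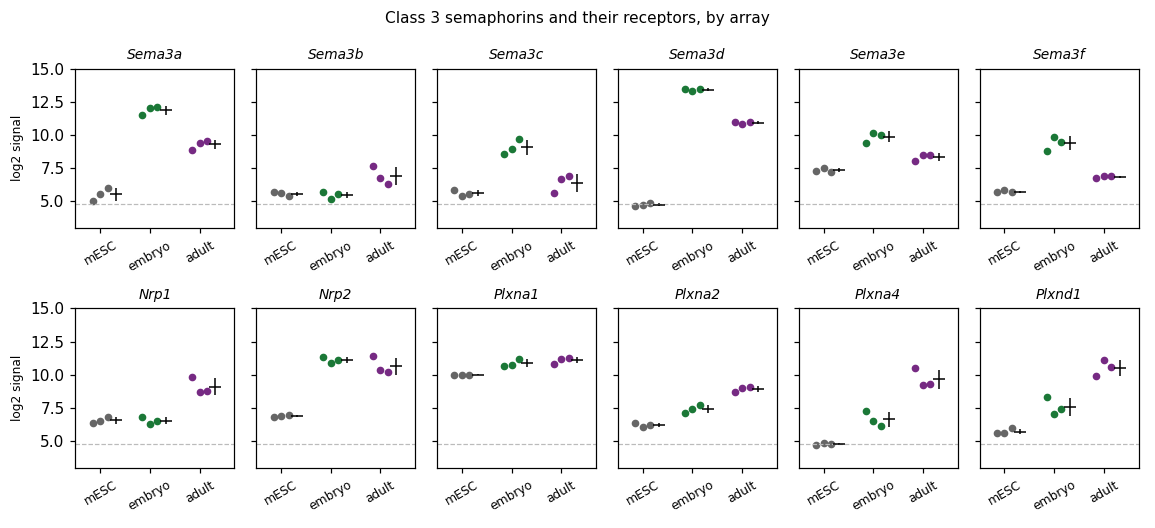
Log2 signal (y axis) of 6 class 3 semaphorins and 6 of their receptors on each array (points, by group), with mean and SD to the right of each group. The dashed line is the negative-control median of 4.81. Sema3a, Sema3c, Sema3d, Sema3e and Sema3f are highest in embryo, whereas Nrp1, Plxna2, Plxna4 and Plxnd1 are highest in adult.

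Membrane-bound semaphorins mostly missed the thresholds. Of 13 genes of classes 4 to 7, 1 was called, Sema5a, whose protein carries thrombospondin repeats. It gave 9.16, 8.98 and 9.41 in embryo and 11.52, 11.9 and 11.78 in adult (-2.55 ± 0.13, a 5.86-fold lower level, adjusted p = 3.68e-05). The groups lay far apart, and of the alternatives tried the first date string alone was the one that ended the call. Sema4a and Sema4c passed on adjusted p but not on size (0.72 ± 0.11, adjusted p = 0.00363, and 0.86 ± 0.17, adjusted p = 0.0128). Both had their 3 embryo arrays above their 3 adult arrays. Sema7a, a lipid-anchored semaphorin, was -1.31 ± 0.4 (adjusted p = 0.0643), with 7.93, 6.5 and 6.41 in adult.

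Ephrin-B genes went both ways. Efnb2 gave 13.45, 13.99 and 13.47 in embryo against 11.51, 11.4 and 11.25 in adult (2.25 ± 0.15, a 4.76-fold higher level, adjusted p = 9.52e-05). Efnb1, an X-linked gene, gave 10.53, 10.72 and 11.06 against 12.48, 11.76 and 11.78 (-1.24 ± 0.22, adjusted p = 0.008). Neither pair of groups overlapped, so the ephrin-B2 transcript was higher in embryo and the ephrin-B1 transcript higher in adult. Without adult replicate 1 the Efnb1 difference was -1, just short of the size threshold. Efnb3 differed by -0.37 ± 0.1, short of it as well.

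Ephrin-A genes had smaller differences. Efna2 gave 9.51, 10.09 and 10.01 in embryo and 8.7, 8.82 and 8.78 in adult (1.1 ± 0.15, adjusted p = 0.002). Efna3 gave 7.27, 7.52 and 7.41 against 6.53, 6.31 and 6.01 (1.12 ± 0.15, adjusted p = 0.00231). Both sat just above the size threshold. Leaving out embryo replicate 2 took Efna2 to 0.99, and leaving out adult replicate 3 took Efna3 to 0.98. The Efna2 call was also lost under quantile normalisation. Efna3 shares a stretch of chromosome 3 with Efna1 and Efna4, with gaps of 32.8 and 10.4 kb. Efna4 was 0.88 ± 0.26 (adjusted p = 0.0634), and for Efna1 and Efna5 the groups overlapped (-0.47 ± 0.35 and -0.16 ± 0.25).

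Among Eph receptors, 2 of 9 EphA genes were higher in embryo and 1 of 5 EphB genes was lower. Epha1, a receptor found mainly in epithelia, gave 9.85, 10.17 and 10.11 in embryo and 8.29, 9.05 and 9.02 in adult (1.26 ± 0.21, adjusted p = 0.0051). Epha2, another epithelial receptor, gave 11.47, 11.94 and 11.47 against 10.98, 10.3 and 10.18 (1.14 ± 0.23, adjusted p = 0.0134). The Epha2 call was lost without adult replicate 3, without embryo replicate 2, in a fit of the embryo and adult arrays alone and under quantile normalisation. Ephb1 gave 6.3, 6.51 and 6.41 against 7.16, 7.79 and 8.09 (-1.27 ± 0.21, adjusted p = 0.00513). Its second cluster, on the other strand, stayed near background, and the mean of both clusters was not called. Ephb4, the receptor that prefers ephrin-B2, was 10, 10.46 and 10.41 against 9.24, 9.39 and 9.43, groups apart but with a difference of 0.94 ± 0.12 (adjusted p = 0.00182) that missed the size threshold. Epha4 (0.58 ± 0.22, adjusted p = 0.136) and Epha7 (-0.4 ± 0.31, adjusted p = 0.505) did not pass.

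**Figure D4:**
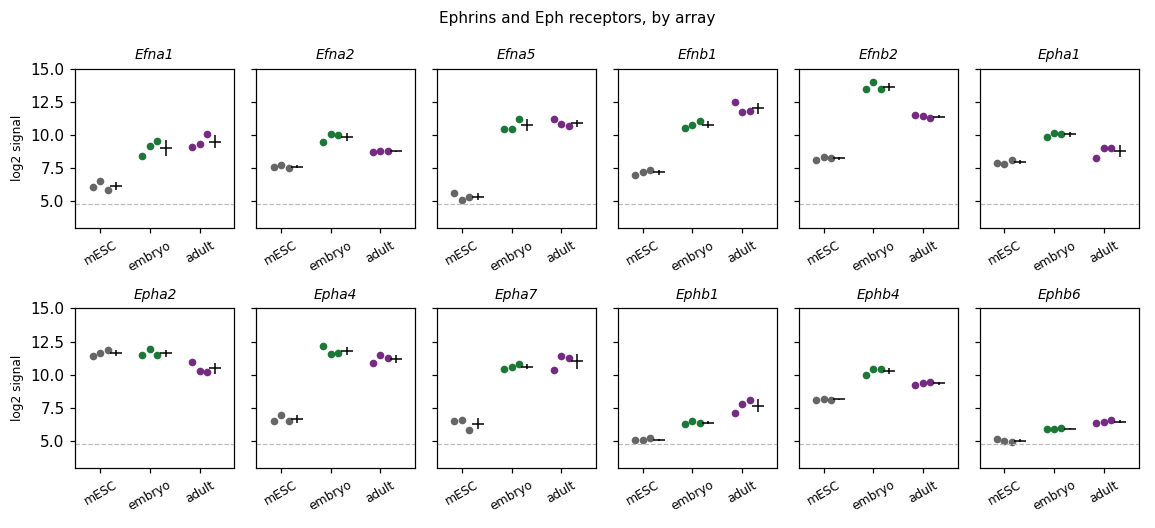
Log2 signal (y axis) of 5 ephrin and 7 Eph receptor genes on each array (points, by group), with mean and SD to the right of each group. The dashed line is the negative-control median of 4.81. Efnb2 is highest in embryo and Efnb1 in adult, while Epha2 is as high in mESC (11.44 to 11.85) as in embryo (11.47 to 11.94).

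Of the Robo receptors, 1 of 4 was called. Robo1, a Slit receptor, gave 12.69, 12.98 and 12.97 in embryo and 11.64, 11.69 and 11.74 in adult (1.19 ± 0.12, adjusted p = 0.000608). The groups did not overlap, but the call was lost under quantile normalisation. Robo2 gave 5.96, 5.56 and 6.6 against 6.48, 5.11 and 5.82, with no separation. The endothelial receptor Robo4 and the commissural receptor Robo3 were at background on all arrays. None of the 3 Slit ligands was called. Slit2 gave 5.36, 5.27 and 5.03 in embryo and 6.3, 5.7 and 5.57 in adult (-0.64 ± 0.19, adjusted p = 0.0592).

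Adult replicate 1 stood apart for several members. Its signals deviated from the adult mean with an SD of 0.264 over all clusters, against 0.151 to 0.202 on the other 8 arrays. On 7 members (Epha3, Slit3, Sema7a, Plxna4, Nrp1, Nrp2 and Ephb2) it lay at least 1 log2 unit above both other adult arrays, and on Sema3c as far below both. Epha3 gave 11.55, 7.05 and 6.23 in adult and 5.9, 5.85 and 5.66 in embryo, so that its difference of -2.47 ± 1.19 did not pass (adjusted p = 0.242). Slit3 gave 10.29, 8.36 and 7.37 against 6.66, 6.26 and 6.49 (-2.2 ± 0.64, adjusted p = 0.0568), and passed without adult replicate 1, without adult replicate 3, among brighter clusters only and with a trended, robust prior. Both had all adult arrays above all embryo arrays. Mesenchyme markers were highest on that array too (12.1 against 10.18 and 9.82), as were osteoblast and odontoblast markers (9.52 against 7.64 and 7.35) and ameloblast markers (14.79 against 13.31 and 13.32). Dental epithelium markers were lowest there (11.79 against 12.96 and 12.82). The part of these markers in the values of Epha3, Slit3, Sema3c and the other 5 genes was not tested. Among the embryo arrays, replicate 1 was lowest or tied for lowest for 10 of the 11 members called higher in embryo, and for 36 of all 60. The same count over all 60 was 29 for replicate 1 of mESC and 29 for replicate 1 of adult. Mesenchyme markers averaged 8.5 on embryo replicate 1, against 7 and 6.7 on the other embryo arrays, and macrophage markers 5.5 against 4.8 and 4.96. Dental epithelium markers were not lowest there (12.34 against 12.26 and 12.78). Their part in the embryo values was not tested either.

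**Figure D5:**
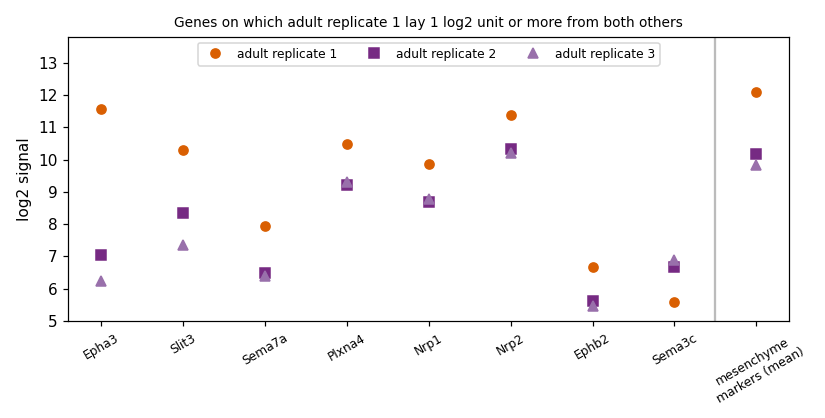
Log2 signal (y axis) on the 3 adult arrays (points) of 8 genes on which adult replicate 1 was at least 1 log2 unit from both others, beside the mean of 8 mesenchyme markers. Adult replicate 1 is the highest for 7 of the 8 genes and for the markers, and the lowest for Sema3c.

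Against mESC, the guidance genes were mostly higher in the dental cells. These 2 comparisons share the mESC arrays and are not independent, so their values are set side by side. In embryo 31 of 60 members were higher than in mESC and 0 lower, where limma called 11% of all clusters, 4.88% higher and 6.1% lower. At an unadjusted p under 0.05, 1 member was lower in embryo. In adult 33 were higher and 1 lower, where 17.2% of all clusters passed, 6.87% higher and 10.3% lower. The median difference was 1.2 for embryo and 1.13 for adult, against -0.07 over all clusters in both. Groups did not overlap for 43 members in embryo (71.7%, against 42% of clusters) and 44 in adult (73.3%, against 47.5%).

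Sema3d had the widest gap from mESC in embryo, 8.66 ± 0.09 (adjusted p = 2.18e-09), and 6.17 ± 0.09 in adult. Its mESC arrays lay near background, with 2 of 3 above their negative-control median, where a lower true level would not be resolved. Sema5a was 3.85 ± 0.13 above mESC in embryo (adjusted p = 7.72e-07) and 6.4 ± 0.13 in adult (adjusted p = 4.95e-08), from 5.39, 5.3 and 5.3 in mESC. Sema3a was 6.32 ± 0.29 above in embryo and 3.75 ± 0.29 in adult.

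Of the ephrins, Efna5 gave 5.63, 5.09 and 5.34 in mESC and 10.47 to 11.24 across the dental arrays, 5.37 ± 0.25 higher in embryo (adjusted p = 4.29e-06) and 5.53 ± 0.25 in adult (adjusted p = 2.44e-06). The embryo and adult arrays of Efna5 overlapped. Efnb2, at 8.14, 8.32 and 8.29 in mESC, was 5.39 ± 0.15 higher in embryo and 3.14 ± 0.15 in adult. Efnb1, at 6.98, 7.24 and 7.37, was 3.57 ± 0.22 and 4.81 ± 0.22 higher. All dental arrays of these genes lay above all mESC arrays.

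Among receptors, Robo1 gave 7.14, 7.53 and 7.48 in mESC, and was 5.5 ± 0.12 higher in embryo (adjusted p = 8.36e-08) and 4.31 ± 0.12 in adult (adjusted p = 2.55e-07). Epha4, which binds ephrins of both classes, gave 6.54, 7 and 6.49 in mESC, 12.15, 11.57 and 11.65 in embryo and 10.89, 11.49 and 11.26 in adult. It was 5.11 ± 0.22 and 4.54 ± 0.22 above mESC. Epha7 was 4.3 ± 0.31 and 4.7 ± 0.31 above, and Nrp2 4.23 ± 0.29 and 3.76 ± 0.29. Of the 9 plexins 7 were higher in embryo and 8 in adult. Plxnb2, a receptor of class 4 semaphorins, was 2.22 ± 0.13 and 2.08 ± 0.13 above mESC. Plxnc1, the Sema7a receptor, was 3.29 ± 0.33 and 4 ± 0.33 above, with 4.9, 4.89 and 4.91 in mESC.

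Epha2 was the member lower in adult than in mESC (-1.15 ± 0.23, adjusted p = 0.00565), a call lost without adult replicate 3, under quantile normalisation and in the authors' deposited table. In embryo it did not differ detectably from mESC (-0.01 ± 0.23, adjusted p = 0.983). Nrp1 and Slit3 were called above mESC in adult (2.54 ± 0.32 and 2.37 ± 0.64) but not in embryo (-0.01 ± 0.32 and 0.17 ± 0.64). The Slit3 call in adult was lost without mESC replicate 1, without mESC replicate 2, with the date string as a block, in a fit of the adult and mESC arrays alone and in the authors' deposited table. Robo2 and Sema7a were called above mESC in adult with adjusted p = 0.0381 and adjusted p = 0.0365, and lost that call under 10 and 13 alternatives.

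Other genes of these pathways were counted from a list of 66, of which 62 were measured. Between embryo and adult 10 were higher in embryo and 2 lower, where 3.59% of all clusters were called higher and 2.83% lower. The netrin family had 2 of 14 higher, the receptor gene Unc5c (2.49 ± 0.13, adjusted p = 4.36e-05) and Ntng1 (1.08 ± 0.23), and 1 lower, the ligand gene Ntn4 (-2.35 ± 0.36). Of 20 semaphorin and plexin signalling genes 5 were higher, among them Dpysl2, which encodes the collapsin response mediator CRMP2 (1.49 ± 0.1), and the adhesion gene Chl1 (1.96 ± 0.23). The plexin-A effector gene Farp2 was lower (-2.03 ± 0.23, adjusted p = 0.000951). Of 13 Slit and Robo signalling genes 3 were higher, the Flrt1, Flrt2 and Flrt3 genes of membrane proteins that bind Robo or Unc5 receptors, with Flrt3 at 3.33 ± 0.18. Of 15 Eph signalling genes 0 passed both thresholds in limma. Grip1, Anks1, Kalrn, Adam10 and Sipa1l1 had an adjusted p under 0.05, but their differences fell short of the size threshold. An unadjusted p under 0.05 was found for 6 of the 15, and for 10579 of all 39601 clusters. Set against mESC, 25 of the 62 had a higher and 2 a lower level in embryo, with 21 and 2 for adult. Of all clusters, 4.88% were called higher and 6.1% lower than mESC in embryo, and 6.87% and 10.3% in adult.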

How the data were processed

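Total RNA of 9 samples was hybridised to whole-transcript Affymetrix arrays. The deposited values are log2 signals, 1 for each transcript cluster, made with RMA, Expression Console and Transcriptome Analysis Console per the submitters' processing notes, without versions. File headers name the variant SST-RMA, but not its steps or a genome build. RMA makes arrays alike in overall distribution, which hides a shift common to most genes, and its dim signals are compressed. The deposited comparison tables also hold adjusted p-values and a signed linear fold change (a score, negative where the first group is lower).

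Group differences came from limma 3.58.1 (lmFit and eBayes, R 4.3.3) fitted on all 9 arrays in 1 fit of 3 group means with 6 residual degrees of freedom, over the 39601 clusters with at least 1 gene symbol. Clusters without a symbol and 6732 control probe sets were left out. Nrp1 and Sema4a share their cluster's annotation with a microRNA. Errors marked ± are standard errors of that fit. The small number of arrays limits precision. Where a gene had several clusters the brightest over 9 arrays was kept. The test was checked on simulated arrays. Members, lists and thresholds were chosen with earlier results of these data known. Every member could be named. The rule gave array values to up to 12 called members a comparison, by size of difference, and to the brightest member of each family in each group. The array values of other called members and of Epha3, Ephb4, Robo2, Sema7a, Slit2 and Slit3 were added after their values were seen.

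A second deposited summary holds the same values (9 of 9 columns identical) under array names that give the group and a date string. By these, 2 adult and 1 embryo arrays share the first string and 1 adult, 2 embryo and 3 mESC arrays the second. Columns were used by group and not matched to samples, although their identical values would allow it. There 2 embryo columns share a name, and the SD of their difference (0.374) was lower than for the other embryo pairs (0.426 and 0.422). Whether they are separate samples or 1 sample run again, which would leave 2 embryo samples, is not stated. They were kept as separate samples, as the labels have them, and averaging them was an alternative chosen after seeing the data. Tables were handled with Python 3.11.15 and pandas 2.3.3, and figures drawn with matplotlib 3.10.9.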

Additional observations from a re-analysis of the deposited data

How the results depend on the processing

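Against alternatives to normalisation, clusters tested, variance prior, array weights, array set, pairing and date string, no called member changed direction. For members whose groups did not overlap, leaving out arrays or taking a date string alone could not change it. Embryo against adult gave 16 to 22 members called when 1 array was left out (19 with all), 9 to 14 higher and 7 to 9 lower, with 2088 to 2690 of all clusters (2541). Against mESC the ranges were 29 to 31 for embryo, 0 lower in each case, and 31 to 35 for adult, with 30 to 34 higher and 0 to 1 lower. With the same-named embryo columns averaged, 19, 31 and 33 members were called. With the replicate block, 19, 31 and 33 members were called. Deviations from the group means correlated at -0.08 to 0.154 between same-numbered arrays of different groups. Between differently numbered arrays the range was -0.126 to 0.113. The highest value was that of embryo replicate 1 and adult replicate 1. The labels state no pairing, and the numbers were not treated as pairs. Within the first date string 0 members and 0 of all clusters were called, where 1 residual degree of freedom remained and 6112 clusters had an unadjusted p under 0.05. Within the second, which holds 1 adult array assumed to vary like the others, 11 members (6 higher, 5 lower) and 1531 clusters were called. By adjusted p alone 6314, 10966 and 14425 clusters passed in embryo against adult, embryo against mESC and adult against mESC, and members lower than mESC then numbered 1 for embryo and 3 for adult. By the adjusted p and fold of the authors' deposited table for embryo against adult, the count was 4 members (3 higher, Efnb2, Robo1 and Sema3d, and 1 lower, Sema5a) and 594 clusters. By those of the table for adult against mESC, 0 members were lower in adult than mESC. That last count was also 0 under quantile normalisation and without adult replicate 3. With the 95th percentile of negative controls as the floor, members above it on 3 arrays fell from 48, 49 and 49 to 3 in mESC, 14 in embryo and 13 in adult. The causes were not tested. Of the members called in each comparison, 3 of 19, 26 of 31 and 26 of 34 kept their call in every alternative, the date strings alone aside. The first date string holds no mESC array, so comparisons with mESC were not made within it.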
